A study of Mus musculus with 8 samples.

Results

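Genes of the NRF2 antioxidant response were examined in the brains of newborn mice whose mothers drank water with cadmium (Cd). The set holds 10 genes, taken by symbol from textbook members of the pathway with no threshold on a measured value, among the 49585 genes listed in the deposited read count table. The choice was made with earlier results of these data known. The poly(A) RNA of 8 whole brains was sequenced, each from a newborn female B × C pup, the F1 of a C57BL/6J mother (B) and a CAST/EiJ father (C), sacrificed within a day of birth (postnatal day 1 in the labels). The mothers received CdCl2 in drinking water at 0 ppm (4 pups) or 50 ppm (4 pups) before and throughout pregnancy, and per the study's methods exposure stopped at birth and each pup came from a different litter. All 8 pups shared the hybrid genotype, sex and age, and differed in the dose that their mothers received.

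NRF2, encoded by *Nfe2l2*, is a transcription factor that the adaptor protein KEAP1 holds in the cytoplasm and presents to a ubiquitin ligase for degradation. Electrophiles, oxidants and metals such as Cd react with cysteines of KEAP1, after which NRF2 accumulates, pairs with small MAF proteins and binds antioxidant response elements (AREs) in its target genes. The targets make glutathione, keep thiols reduced and detoxify heme and quinones. In the brain, astrocytes are known for a strong NRF2 response and supply neighbouring neurons with glutathione precursors.

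The ARE core, written TGACNNNGC where N is any base, was searched on both strands of the 250 bases before each RefSeq start site (GRCm38.p6). Promoter windows matched 7 of the 10 genes by symbol (*Nfe2l2*, *Keap1*, *Gclm*, *Slc7a11*, *Txnrd1*, *Srxn1* and *Nqo1*), and 3 of these held a match, against 11.5% of all 27025 genes with a window. In *Txnrd1*, which has 3 windows, the match lies before the second listed start site, and there the core is followed by an A, a longer form that 2.8% of all genes held. The 3 matches are shown to set the element beside the expression values, with the 9 core bases in capitals. In *Gclm* and *Txnrd1* the core reads on the opposite strand, as TGACGGTGC and TGACAAAGC. The letters are those of the B reference, so the paternal C alleles are not shown. A match describes the letters in this window and does not show binding in these brains. Sequence outside these 250 bases was not searched, so a gene without a match may still hold the element elsewhere.
Nfe2l2, chr2:75704865-75704913, minus strand: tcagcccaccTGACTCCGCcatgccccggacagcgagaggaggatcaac
Gclm, chr3:122245393-122245461, plus strand: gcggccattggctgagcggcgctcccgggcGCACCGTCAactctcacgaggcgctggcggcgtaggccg
Txnrd1, chr10:82859084-82859152, plus strand: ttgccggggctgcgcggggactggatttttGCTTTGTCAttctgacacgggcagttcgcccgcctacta

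Between 22916434 and 30708087 reads were counted on genes per brain, with no difference between doses beyond the spread of the libraries (exact two-sided permutation test, p = 0.486). All 10 genes passed the filter on low counts, and the smallest count of any of them in a brain was 95 reads. The neuronal genes *Snap25*, *Map2*, *Stmn2*, *Rbfox3* and *Syt1* summed to 3842 to 4401 CPM (counts scaled to library size) in the 8 brains. The neuronal tubulin gene *Tubb3* was listed at 0 in every library. Its exons overlap those of no other annotated gene. The cause of the 0 was not found, and it was not taken to mean absent RNA. Some marker lists of other cells held genes with an unadjusted p under 0.05, and no marker was called after adjustment. The summed CPM of 8 astrocyte markers lay between 872 and 1120 at 0 ppm and between 1125 and 1356 at 50 ppm. Of the 8, 5 had an unadjusted p under 0.05, all higher, where 2.31% of all genes tested were higher at that level. By p-value the first were the water channel gene *Aqp4* (log2 fold change 0.71, adjusted p = 0.271 from edgeR's test) and the gap junction gene *Gja1* (0.44, adjusted p = 0.426). For 12 microglia and macrophage markers the sums were 125 to 147 and 147.5 to 175 CPM, with 4 higher at that level. For 8 brainstem and spinal cord markers 7 were higher at that level, but 2 control libraries stood apart. The sums were 1.02, 4.02, 42.5 and 43.2 CPM in 0 ppm replicates 1 to 4 and 113.6, 59.3, 37.2 and 52.3 CPM in 50 ppm replicates 1 to 4, so that 0 ppm replicates 3 and 4 lay within the range of the exposed brains. A comparison without 0 ppm replicates 1 and 2 was added after the data were seen. In it 3 of the 8 brainstem and spinal cord markers and 4 of the 8 astrocyte markers had an unadjusted p under 0.05. So did 3 of the 12 microglia and macrophage markers, against 4.28% of all genes. The replicate numbers were given here in the order of the deposited samples and link no brain of a dose to a brain of the other. No defining marker of these 3 lists was at 0 in all libraries. In bulk tissue a change in the number of cells of a type and a change in RNA per cell cannot be told apart, and the part of these marker differences in the values of the NRF2 genes was not tested.

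None of the 10 genes passed a comparison of 50 ppm with 0 ppm by edgeR's quasi-likelihood test, and each had a Benjamini-Hochberg adjusted p of 0.999 across the 23113 genes in the fit. The background was 4 genes called, or 0.0173% of the genes tested. At an unadjusted p under 0.05 the number was 0 of the 10, where 3.75% of all genes passed (2.31% higher and 1.44% lower at 50 ppm), and DESeq2 gave 0 of the 10 both before and after adjustment. The CPM of the groups overlapped for each of the 10 genes, where 2.09% of all genes had groups that did not overlap (1.19% higher and 0.904% lower at 50 ppm). The log2 fold change was positive for 5 genes and negative for 5, with a median of -0.01 against 0.00 over all genes tested. Without 0 ppm replicates 1 and 2 the number called was again 0 of 10, with an adjusted p of 0.998 for each gene from edgeR's test, and 1 of the 10 had an unadjusted p under 0.05 (*Slc7a11*) where 4.28% of all genes did. Over all 8 libraries the 95% interval of the fold change lay within 1.5-fold in either direction for all 10 genes, as it did for 55% of all genes tested, with the lowest bound at 0.743-fold for *Hmox1* and the highest at 1.30-fold for *Slc7a11*. The genes tested include many with fewer reads than any of the 10, and interval widths differed with read count, so the 2 shares are not a like comparison.

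**Figure D1:**
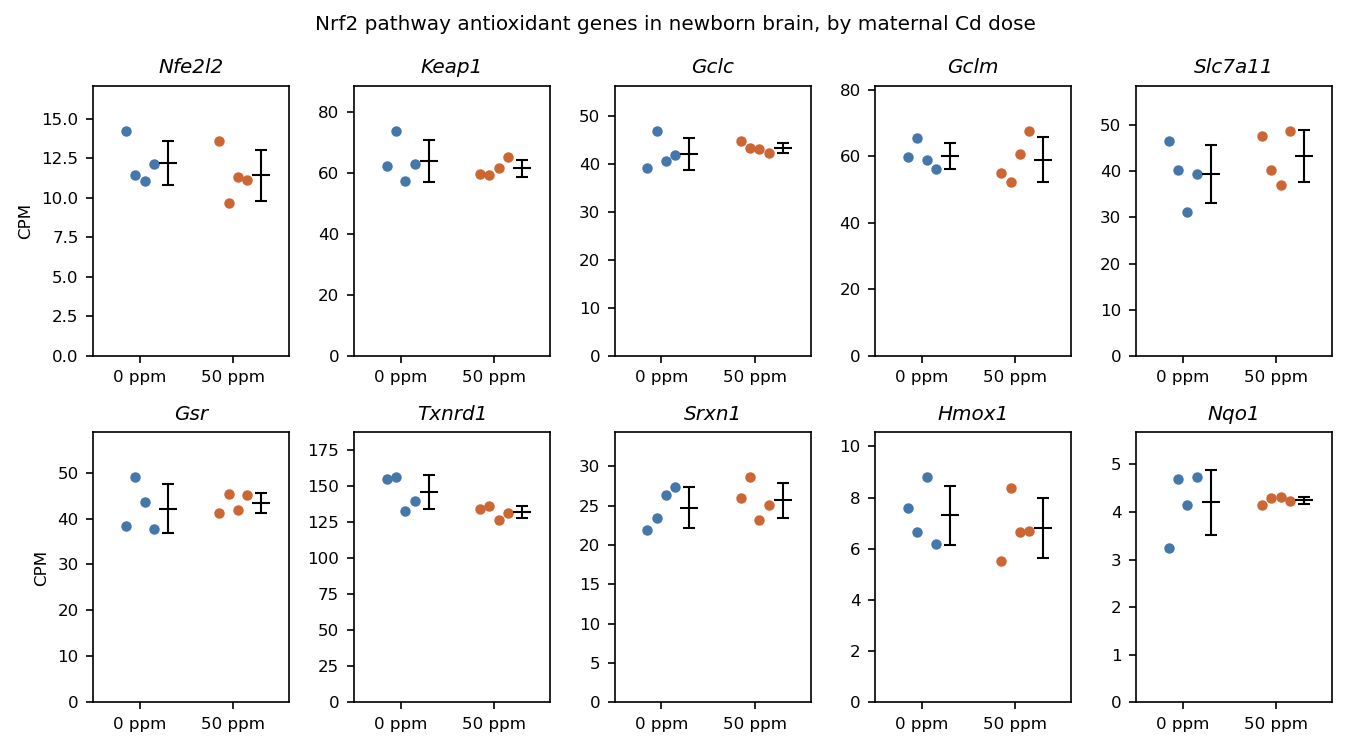
CPM of the 10 genes in each brain by maternal Cd dose (0 ppm in blue, 50 ppm in orange, 4 brains each, 1 point per brain), with the mean and SD beside the points in black and each vertical axis starting at 0. The points of both doses overlap in all 10 panels. For *Txnrd1* and *Nqo1* the exposed points all lie below the control median, and for *Gclc* and *Gsr* all lie above it.

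The regulators themselves were measured first. *Nfe2l2* (ENSMUSG00000015839) is a minus-strand gene of chromosome 2 (GRCm38, as for all genes here, 75675513 to 75704641). It had 14.2, 11.4, 11.1 and 12.1 CPM in the 0 ppm brains and 13.6, 9.69, 11.3 and 11.1 CPM in the 50 ppm brains. The highest brain was a control and the lowest an exposed brain, and the groups overlapped. The log2 fold change was -0.09 (standard error 0.13, 95% interval -0.36 to 0.17, unadjusted p = 0.472 from edgeR's test), so that a 2-fold change of the RNA lay outside the interval. NRF2 is regulated mainly through the stability of the protein, which RNA counts do not measure.

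*Keap1* (ENSMUSG00000003308, chromosome 9, 21229730 to 21239361, minus strand) encodes the sensor that keeps NRF2 low. The 0 ppm brains had 62.3, 73.9, 57.6 and 62.9 CPM and the 50 ppm brains 59.7, 59.3, 61.8 and 65.4 CPM. Both the highest and the lowest value came from the 0 ppm brains, so the exposed brains fell inside the range of the control brains. The log2 fold change was -0.06 (standard error 0.08, 95% interval -0.23 to 0.11). A gene of the opposite strand covers 10.9% of the *Keap1* exons, and the strand setting of the count is not given in the sources used here. Per kb of exon, *Nfe2l2* RNA stood at 0.237 ± 0.0374 (SD, n = 4) of the level of *Keap1* at 0 ppm and 0.230 ± 0.0358 (SD, n = 4) at 50 ppm.

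Glutathione synthesis depends on glutamate-cysteine ligase, whose catalytic subunit is encoded by *Gclc* and whose modifier subunit by *Gclm*, and on the cystine importer encoded by *Slc7a11*. *Gclc* (ENSMUSG00000032350, chromosome 9, 77754535 to 77794485, plus strand) measured 39.1, 46.8, 40.6 and 41.8 CPM in the controls and 44.7, 43.2, 43.1 and 42.2 CPM after maternal exposure. The exposed brains again lay inside the control range, and the log2 fold change was 0.04 (standard error 0.08, 95% interval -0.12 to 0.21). *Gclm* (ENSMUSG00000028124, chromosome 3, 122245557 to 122270732, plus strand) measured 59.8, 65.4, 59.0 and 56.3 CPM in the controls and 55.1, 52.4, 60.7 and 67.7 CPM after maternal exposure. Here the exposed brains held both extremes, and the log2 fold change was -0.03 (standard error 0.09, 95% interval -0.21 to 0.15). Its exons overlap other genes over 4.7% of their length on the opposite strand and 3.9% on the same strand.

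*Slc7a11* (ENSMUSG00000027737, chromosome 3, 49892526 to 50443614, minus strand) was among the more variable of the 10 genes. The control brains had 46.5, 40.2, 31.2 and 39.5 CPM and the exposed brains 47.6, 40.2, 37.1 and 48.7 CPM. The lowest brain was 0 ppm replicate 3, and the means were 39.3 ± 6.27 and 43.4 ± 5.63 CPM (SD, n = 4). Its log2 fold change was 0.14 (standard error 0.11, 95% interval -0.09 to 0.38, unadjusted p = 0.224 from edgeR's test). Leaving out 0 ppm replicate 3 gave 0.045, and leaving out replicate 1 of the same dose gave 0.233, which were the extremes over the single brains left out. Leaving out 0 ppm replicates 1 and 2 together, those with few brainstem transcripts, gave 0.295 (unadjusted p = 0.0217 and adjusted p = 0.998 from edgeR's test). The estimate of 0.14 was the largest positive value of the 10 genes, and it did not pass.

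Thiol reduction is carried by glutathione reductase (*Gsr*), by cytosolic thioredoxin reductase (*Txnrd1*), a selenoprotein, and by sulfiredoxin (*Srxn1*), which restores overoxidized peroxiredoxins. *Txnrd1* (ENSMUSG00000020250, chromosome 10, 82833951 to 82897712, plus strand) was the most abundant of the 10 genes and had the smallest p-value. It had 155, 156, 133 and 140 CPM in the 0 ppm brains and 135, 136, 126 and 132 CPM in the 50 ppm brains. No exposed brain reached the control median, but replicates 1 and 2 of the exposed group lay above the lowest control brain, so the groups overlapped. The exposed brains of *Nqo1* also all lay below its control median, and those of *Gclc* and *Gsr* all lay above theirs. Means were 146 ± 11.5 at 0 ppm and 132 ± 4.30 CPM at 50 ppm (SD, n = 4), and the log2 difference was -0.14 (standard error 0.07, 95% interval -0.29 to 0.00, unadjusted p = 0.0559 and adjusted p = 0.999 from edgeR's test). Without 0 ppm replicate 3 the unadjusted p was 0.018 with a log2 fold change of -0.19 and an adjusted p of 0.814, and with any other brain left out the unadjusted p lay above 0.05. Without 0 ppm replicates 1 and 2, the highest of the 8 brains, the log2 fold change was -0.05 (unadjusted p = 0.558). The difference in *Txnrd1* was thus not separated from the spread between brains, and the lower bound of its interval was 0.817-fold.

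*Gsr* (ENSMUSG00000031584, chromosome 8, 33652523 to 33698163, plus strand) measured 38.3, 48.9, 43.7 and 37.8 CPM in the controls and 41.1, 45.4, 41.9 and 45.2 CPM after maternal exposure. Its exposed brains lay inside the control range (log2 fold change 0.04, standard error 0.09, 95% interval -0.15 to 0.23). *Srxn1* (ENSMUSG00000032802, chromosome 2, 152105516 to 152111376, plus strand) measured 21.8, 23.4, 26.4 and 27.4 CPM in the controls and 26.0, 28.6, 23.2 and 25.1 CPM after maternal exposure. The highest brain was an exposed brain and the lowest a control brain, with overlap between them. *Srxn1* is a sensitive NRF2 target in many cell types, and its log2 fold change here was 0.05 (standard error 0.10, 95% interval -0.15 to 0.26).

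Heme oxygenase 1 (*Hmox1*) degrades heme and is a classic Cd-inducible gene of cultured cells, and *Nqo1* encodes a quinone reductase widely used as a readout of NRF2. *Hmox1* (ENSMUSG00000005413, chromosome 8, 75093621 to 75100589, plus strand) measured 7.58, 6.66, 8.78 and 6.20 CPM in the controls and 5.51, 8.36, 6.67 and 6.71 CPM after maternal exposure. The lowest of the 8 values was an exposed brain and the highest a control brain. The log2 fold change was -0.10 (standard error 0.15, 95% interval -0.43 to 0.22), with an upper bound of 1.17-fold. *Nqo1* (ENSMUSG00000003849, chromosome 8, 107388225 to 107403206, minus strand) was the least counted of the 10 genes, with 95 to 127 reads per brain. It measured 3.24, 4.69, 4.15 and 4.72 CPM in the controls and 4.14, 4.28, 4.32 and 4.23 CPM after maternal exposure, and the estimate on the log2 scale was 0.02 (standard error 0.16, 95% interval -0.32 to 0.35). The means of 4.20 ± 0.691 and 4.24 ± 0.0773 CPM (SD, n = 4) were nearly equal, while the control brains were more spread.

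**Figure D2:**
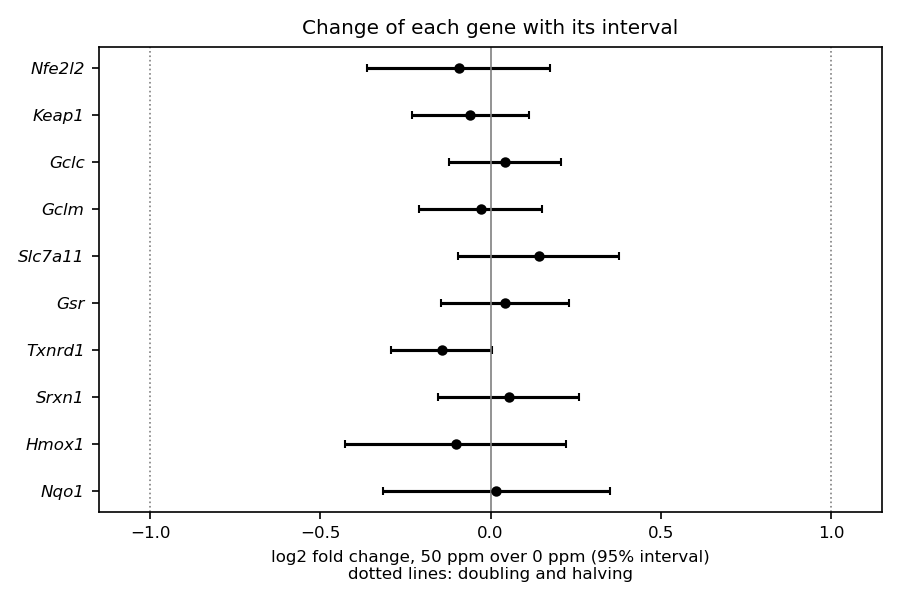
Log2 fold change of each gene (points) at 50 ppm over 0 ppm with its 95% interval (bars) from edgeR's fit, and dotted lines at a 2-fold change in either direction. All 10 intervals include 0 and all lie inside the dotted lines, and *Nqo1* and *Hmox1* have the widest.

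The widths of these intervals differed between well and thinly counted genes. The half-width was smallest for *Txnrd1*, at 0.15 on the log2 scale with 2987 to 4555 reads per brain, and largest for *Nqo1*, at 0.33 with 95 to 127 reads. *Hmox1*, with 152 to 269 reads, had a half-width of 0.325, and a difference smaller than the half-width could not reach an unadjusted p of 0.05 with this spread.

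Per kb of exon, the 10 genes fell into an upper and a lower group. *Txnrd1* led with 20.6 ± 1.62 CPM per kb (SD, n = 4) at 0 ppm and 18.7 ± 0.607 at 50 ppm, and its lowest brain lay above the highest brain of *Gsr*, which followed with 15.3 ± 1.90 and 15.8 ± 0.809. *Keap1* had 13.7 ± 1.47, *Gclc* 11.2 ± 0.885, *Gclm* 9.56 ± 0.609 and *Srxn1* 8.78 ± 0.909 CPM per kb (SD, n = 4) at 0 ppm. From *Gsr* down to *Srxn1* the ranges of neighbours in this order overlapped, although *Gsr*, *Keap1* and *Gclc* kept places 2, 3 and 4 in each of the 8 brains. A gap without overlap separated *Srxn1* from the lower group of *Hmox1* (4.17 ± 0.652), *Nfe2l2* (3.22 ± 0.373), *Slc7a11* (2.83 ± 0.450) and *Nqo1* (2.71 ± 0.445 CPM per kb, SD, n = 4, at 0 ppm), whose neighbours also overlapped. The inducible enzymes *Hmox1* and *Nqo1* were thus among the lowest of the set at both doses. The place of *Slc7a11* rests on the length used. Its 39.3 CPM at 0 ppm were close to the 42.1 CPM of *Gclc*, but its exon union is 13922 bases against 3766 bases. The union takes in all annotated exons, and which of them were expressed was not tested. Per kb, *Gclc* stood at 1.17 ± 0.0627 (SD, n = 4) of the level of *Gclm* at 0 ppm and 1.24 ± 0.158 (SD, n = 4) at 50 ppm.

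**Figure D3:**
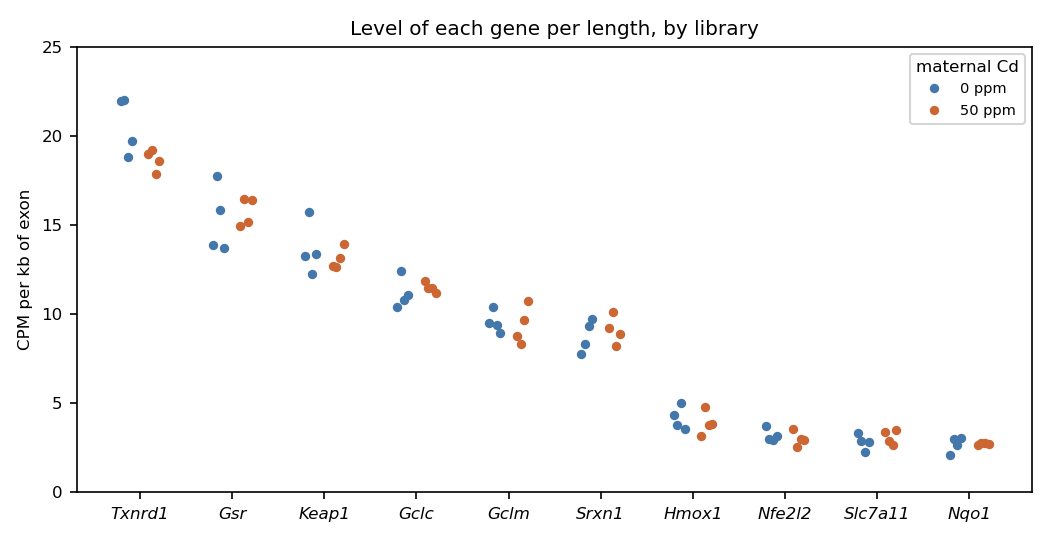
CPM per kb of exon of the 10 genes in each brain (0 ppm in blue, 50 ppm in orange), ordered by the mean at 0 ppm. *Txnrd1* stands above the rest, and a gap lies between *Srxn1* and *Hmox1* at both doses.

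The genes around the pathway also differed in both directions, mostly by little. Further lists with 70 genes in all held partners and regulators of NRF2, other target genes, and other genes of glutathione, thioredoxin and heme metabolism. None of the 70 had an adjusted p under 0.05 with edgeR's test (background 0.0173%), and 1 of them, or 1.43%, had an unadjusted p under 0.05, against 3.75% of all genes. Their log2 fold changes were positive for 33 and negative for 37, with a median of -0.01. The 95% interval lay within 2-fold for 68 of the 70, all but *Gpx2* and *Osgin1*, which had at most 0.273 and 0.393 CPM in a brain.

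Of the 18 partners and regulators, 9 had a positive and 9 a negative log2 fold change, with a median of 0.00. The smallest p-values among them belonged to *Mafg*, which encodes a small MAF partner of NRF2 (97.3 ± 4.61 and 88.4 ± 6.49 CPM, SD, n = 4, log2 fold change -0.14, unadjusted p = 0.0731 from edgeR's test), and to *Rxra*, a nuclear receptor gene (24.3 ± 2.26 and 27.1 ± 0.993 CPM, SD, n = 4, log2 fold change 0.15, unadjusted p = 0.105). *Bach1*, the repressor that competes with NRF2 at *Hmox1*, and *Cul3*, the scaffold of the ligase that KEAP1 recruits, had log2 fold changes of -0.07 and 0.03, and *Sqstm1*, which can sequester KEAP1 and is also an NRF2 target, had -0.01 (chosen for their roles after the values were seen). Of the 24 other target genes, 13 had a positive and 11 a negative log2 fold change, with a median of 0.02.

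*Ephx1*, which encodes microsomal epoxide hydrolase, was the 1 gene of the 70 whose groups did not overlap, where 2.09% of all genes did so. Its 0 ppm brains had 7.99, 7.96, 8.23 and 7.67 CPM and its 50 ppm brains 9.37, 9.37, 10.1 and 8.87 CPM, so every exposed brain was above every control brain. The log2 fold change was 0.24 (standard error 0.12, unadjusted p = 0.0504 and adjusted p = 0.999 from edgeR's test), and the gene did not pass. Without 0 ppm replicates 1 and 2 the log2 fold change of *Ephx1* was 0.241 (unadjusted p = 0.131 from edgeR's test). *Ugdh*, a gene of glucuronic acid synthesis, followed with a log2 fold change of -0.14 (unadjusted p = 0.0924).

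The 1 gene with an unadjusted p under 0.05 was *Txnip*, whose product binds and inhibits thioredoxin and whose RNA responds to glucose. The control brains had 58.4, 55.2, 66.9 and 68.3 CPM and the exposed brains 63.8, 107, 84.9 and 120 CPM. Replicate 1 of the 50 ppm group lay within the control range, and the other exposed brains were above all control brains. On the log2 scale the difference was 0.59 (standard error 0.14, 95% interval 0.30 to 0.89, unadjusted p = 4.65e-04, adjusted p = 0.358 from edgeR's test). Without 0 ppm replicates 1 and 2 the difference was 0.47 (unadjusted p = 0.0044 and adjusted p = 0.663 from edgeR's test). In the same list of 18 glutathione and thioredoxin genes, 8 had a positive and 10 a negative log2 fold change with a median of -0.01, and *Glrx*, the cytosolic glutaredoxin gene, came next with 0.20 (unadjusted p = 0.0761).

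Of 11 other heme genes 4 had a positive and 7 a negative log2 fold change, with a median of -0.02. *Blvra*, the biliverdin reductase gene that acts after heme oxygenase, had 9.67 ± 0.529 and 11.1 ± 1.34 CPM (SD, n = 4, log2 fold change 0.20, unadjusted p = 0.112 from edgeR's test), and *Alad*, a heme synthesis gene, had a log2 fold change of -0.07 (unadjusted p = 0.430). The constitutive heme oxygenase gene *Hmox2* differed by -0.05 ± 0.08 (standard error) on the log2 scale.

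The metal response list, whose metallothionein genes are switched on by the zinc sensor MTF1, held 7 genes, with none called, 4 positive and 3 negative log2 fold changes and a median of 0.00. *Mt1* ranged from 11.4 to 16.5 CPM in the control brains and from 15.2 to 20.0 CPM in the exposed brains, which overlap. Its difference on the log2 scale was 0.33 (standard error 0.13, unadjusted p = 0.0175 and adjusted p = 0.999 from edgeR's test). Without 0 ppm replicates 1 and 2 the difference was 0.255 (unadjusted p = 0.0788 from edgeR's test). *Mt2* had a log2 fold change of 0.16 over all 8 libraries (standard error 0.13, unadjusted p = 0.244).

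**Figure D4:**
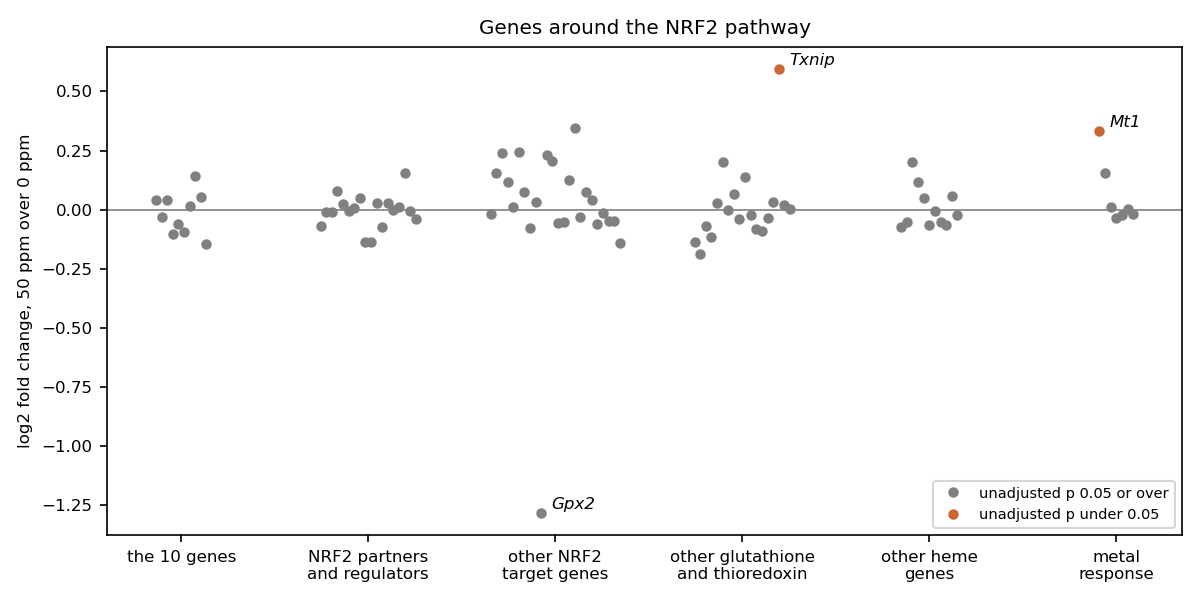
Log2 fold change at 50 ppm over 0 ppm of the 10 genes and of the genes of 5 related lists, 1 point per gene, with genes at an unadjusted p under 0.05 in orange. *Txnip* at 0.59 and *Mt1* at 0.33 are the 2 orange points, and *Gpx2*, which had at most 0.273 CPM in a brain, is the outlying low point.

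The estimates were small enough for the choice of brains to decide their sign in several genes. With 1 brain left out, *Keap1*, *Gclm*, *Gsr*, *Srxn1* and *Nqo1* each turned sign at least once, while *Nfe2l2*, *Txnrd1* and *Hmox1* remained negative and *Gclc* and *Slc7a11* positive. The sizes still moved widely, from -0.218 to -0.001 for *Hmox1* (without 50 ppm replicate 2 and 0 ppm replicate 3), from -0.186 to -0.011 for *Nfe2l2* (without 50 ppm replicate 1 and 0 ppm replicate 1) and from 0.009 to 0.097 for *Gclc* (without 0 ppm replicates 1 and 2, each in turn). None of the 10 genes was called in any of the 13 other settings, from DESeq2 to each brain left out, and their adjusted p-values in these lay between 0.814 and 1.

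**Figure D5:**
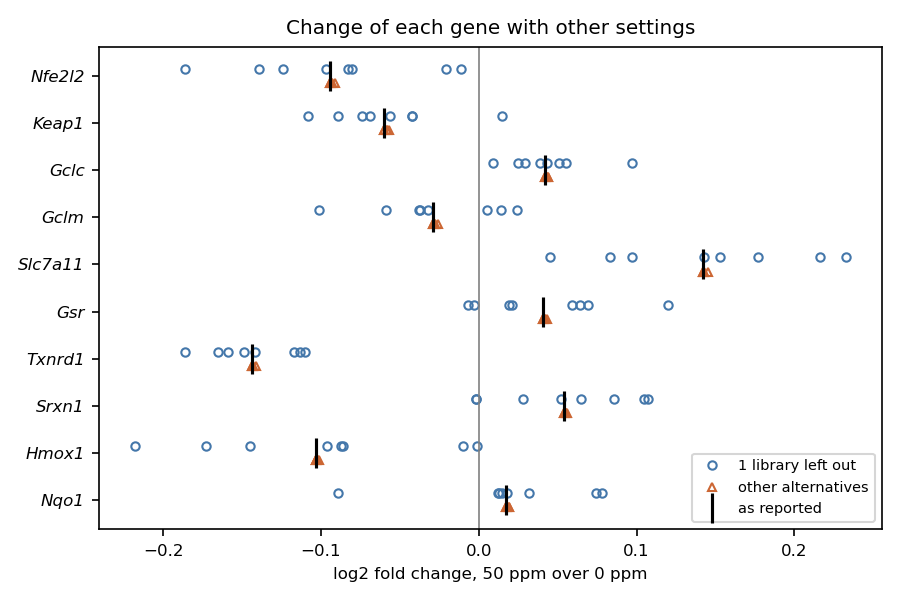
Log2 fold change of each gene as reported (black bar), with each brain left out in turn (blue circles) and with the other 5 alternatives for the B genome (orange triangles). For each gene the brain with the most effect moved the estimate by more than any of these 5 alternatives, and the values of *Slc7a11* ranged from 0.045 to 0.233.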

How the data were processed

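Gene read counts without normalization were deposited for alignments to the B (C57BL/6J, on GRCm38, Ensembl 87) and C (CAST/EiJ) genomes. The authors trimmed the first 10 bases, aligned with STAR and counted with htseq-count. Tool versions and the strand setting are not given in the sources used here. The 10 genes were read from the B genome table by Ensembl identifier, and 49326 of its 49585 identifiers have a symbol. No table at hand names C genome identifiers of the 10 genes, so these were not analysed there.

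Following the rule that the study states, a gene was dropped when over 2/3 of its 8 values were 0. This kept more genes than the study reports after its filtering, so the tested sets differ. Counts were normalized by TMM and tested over 23113 genes with glmQLFit and glmQLFTest of edgeR 4.0.16 (R 4.3.3, limma 3.58.1), with treatment as the only term and a threshold of 0.05 after Benjamini-Hochberg adjustment. The standard error is the absolute log2 fold change over the square root of F, and the 95% interval uses the t quantile at the total degrees of freedom of the fit (17.8). CPM use TMM library sizes, and CPM per kb use the union of exons in GENCODE M21 (GRCm38), whose gene models may differ from those counted. The code was tested on simulated data. DESeq2 1.42.0 served as an alternative. Same-dose libraries were compared in 12 pairs, and each pair differed beyond sampling noise (chi-square per degree of freedom 8.67 to 21.1).

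The members and lists were chosen with earlier results of these data known. Named genes are the 10 members, the 2 genes with the smallest p-values of each pathway list, and *Mt1*, *Mt2* and *Hmox2*. The astrocyte markers *Aqp4* and *Gja1* are the 2 with the smallest p-values of their list. *Gpx2*, *Osgin1*, *Bach1*, *Cul3* and *Sqstm1* were named after their values were seen. Lists of blood, endothelium, meninges, choroid plexus and oligodendrocyte markers were also drawn up. None of their genes was called, and 0 of 8, 2 of 8, 1 of 8, 0 of 8 and 2 of 8 had an unadjusted p under 0.05. The share over all genes tested was 3.75%. Figures were drawn with matplotlib 3.10.9.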

Additional observations from a re-analysis of the deposited data

How the results depend on the processing

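The number of NRF2 genes called stayed at 0 of 10 with DESeq2, with its size factors in edgeR's fit, with no filter, with a minimum of 10 counts in 4 or more libraries, with the robust fit and with each brain left out. The number of genes called overall moved from 4 to 18 with DESeq2, 52 with no filter, 2 with the stricter filter and 2 in the alignment to the C genome. With 1 brain left out it lay between 2 and 20, the latter without 0 ppm replicate 3. The number of NRF2 genes with an unadjusted p under 0.05 lay between 0 and 1 with 1 brain left out, the 1 being *Txnrd1* without 0 ppm replicate 3.

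Leaving out 0 ppm replicates 1 and 2 together, which was chosen after seeing the data, gave 7 genes called of all genes, 0 NRF2 genes called and 1 with an unadjusted p under 0.05 (*Slc7a11*). It turned the sign of *Keap1* (0.028), *Gclm* (0.027), *Srxn1* (-0.068) and *Nqo1* (-0.065).

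The sign turned only with brains left out. With 1 brain left out, estimates on the log2 scale ran between -0.108 and 0.015 for *Keap1*, between -0.101 and 0.024 for *Gclm*, between -0.007 and 0.120 for *Gsr*, between -0.002 and 0.107 for *Srxn1* and between -0.089 and 0.078 for *Nqo1*. The cause of these moves was not tested. The 4 brains per dose and the 95 to 127 reads of *Nqo1* limit what could be detected. No paired analysis was possible because the labels give no replicate numbers shared by the doses.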

Other observations

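Over the 10 genes, the coefficient of variation of CPM among the brains of a dose was 11.2% at the median in the controls and 6.95% after maternal exposure. It was lower at 50 ppm for 7 of the 10 genes, against 51.1% of the 22965 genes with a coefficient at both doses. Over those genes the median was 15.8% at 0 ppm and 14.9% at 50 ppm. Whether the 10 genes differ from other genes in this was not tested. For *Nqo1* at 50 ppm the coefficient was 1.82%, below the 9.36% that counting error alone gives at its mean of 114.25 reads. The closeness of these 4 brains was therefore not a measure of how precisely *Nqo1* was counted.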
